A study of Homo sapiens with 18 samples.

Results

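The latrophilins ADGRL1, ADGRL2 and ADGRL3 are adhesion receptors of the cell surface, and the teneurins TENM1, TENM2, TENM3 and TENM4 and the FLRT proteins FLRT1, FLRT2 and FLRT3 are their ligands. These 10 genes, chosen by name from the 20329 in the count tables, are described here across 6 groups of HAP1 cells. HAP1 is a near-haploid human cell line of leukaemic origin. The family was put forward with earlier results of these data known, and which values led to the choice is not recorded, so the counts of family members past a threshold are given as a description and support nothing.

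A latrophilin has a large outer part that binds ligands on a neighbouring cell, a membrane-spanning part of the kind found in G protein-coupled receptors, and an inner part that can bind SHANK scaffold proteins. Teneurins are very large membrane proteins and FLRT proteins carry leucine-rich repeats, and a teneurin and an FLRT protein can bind the same latrophilin. In the brain, where the family is best known, these contacts take part in axon guidance and in the choice of synaptic partners.

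Messenger RNA was sequenced from 18 libraries in 6 groups of 3, to learn which genes respond when WAPL, which releases cohesin from DNA, or SCC4, which helps to load it, is lost. Control A (wild-type HAP1) was the reference for ΔWAPL clone 3.3, for ΔSCC4 and for ΔWAPL/ΔSCC4, and control B (wild-type HAP1) was the reference for ΔWAPL clone 1.14. The knockouts were made with CRISPR by inserting a blasticidin resistance cassette into WAPL or a puromycin resistance cassette into SCC4, and the double knockout carries both because SCC4 was disrupted in ΔWAPL cells, which its label gives as clone 3.3. All 6 groups share the HAP1 background, which carries a mutant p53. Each knockout group is 1 clone, so an effect of the missing protein and a property of the clone cannot be told apart within a group. The labels do not say that the 3 libraries of a group came from separate cultures, so p-values measure the spread between these libraries, which may be technical.

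The total count on genes was 10007646 to 20711127 per library. WAPL itself was at 99.2 ± 21.5 CPM (counts scaled to a common library size and for library composition; SD, n = 3) in control A and 121 ± 14.6 CPM in control B, against 43.7 ± 5.65 CPM in clone 3.3, 45.5 ± 3.94 CPM in ΔWAPL/ΔSCC4 and 41.3 ± 2.89 CPM in clone 1.14. MAU2, the gene of SCC4, was at 65.5 ± 6.25 CPM in control A, 0.702 ± 0.243 CPM in ΔSCC4 and 0.934 ± 0.1 CPM in ΔWAPL/ΔSCC4. Of 8 blood cell markers, 3 to 5 had no reads in a given group, SPI1, HBG1 and CD3E among them in every group, and the list summed to at most 0.553 CPM in any library. The libraries of control A stood apart from each other for several genes: replicate 1 was the lowest and replicate 3 the highest for ADGRL2, ADGRL3, FLRT2, TENM1, TENM3 and WAPL, and the part of this spread in the results below was not tested.

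The family is made of unusually long genes: 6 of the 10 span more than 500 kb on GRCh37 (hg19), the build the files use. ADGRL3 lies on chromosome 4 at 62066044 to 62944053, plus strand, and FLRT2 on chromosome 14 at 85996488 to 86120772, plus strand. TENM1 lies on chromosome X at 123509753 to 124338161, minus strand, and shares exonic positions with STAG2, a cohesin subunit gene on the opposite strand. The libraries were strand-specific, and the authors labelled the counting as stranded. TENM2 lies on chromosome 5 at 166406034 to 167691162, plus strand, and TENM4 on chromosome 11 at 78363874 to 79152074, minus strand.

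The promoters of the 3 genes with the widest spread of group means are printed next, from RefSeq on GRCh38.p14 and read 5′ to 3′ along the gene, with the 250 bases before the first listed start site in lower case and the first 50 transcribed bases in capitals. RefSeq lists 2 start sites for ADGRL3, 3 for FLRT2 and 2 for TENM1, and the counts do not say which is used in these cells. The ADGRL3 window is chr4:61200076-61200375 (plus strand), the FLRT2 window chr14:85529894-85530193 (plus strand) and the TENM1 window chrX:125204263-125204562 (minus strand).
ADGRL3: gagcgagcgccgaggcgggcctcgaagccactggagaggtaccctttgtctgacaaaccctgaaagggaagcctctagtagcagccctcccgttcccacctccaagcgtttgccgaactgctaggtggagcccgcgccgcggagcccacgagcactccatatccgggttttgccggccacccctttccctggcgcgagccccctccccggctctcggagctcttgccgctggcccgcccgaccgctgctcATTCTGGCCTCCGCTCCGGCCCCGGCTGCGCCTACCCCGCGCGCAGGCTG
FLRT2: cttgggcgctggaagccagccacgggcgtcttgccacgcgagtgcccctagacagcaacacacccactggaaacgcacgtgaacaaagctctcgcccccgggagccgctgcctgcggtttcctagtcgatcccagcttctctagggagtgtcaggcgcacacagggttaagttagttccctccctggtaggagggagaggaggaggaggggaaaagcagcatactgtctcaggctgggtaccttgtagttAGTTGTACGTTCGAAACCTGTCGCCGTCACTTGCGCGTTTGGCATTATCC
TENM1: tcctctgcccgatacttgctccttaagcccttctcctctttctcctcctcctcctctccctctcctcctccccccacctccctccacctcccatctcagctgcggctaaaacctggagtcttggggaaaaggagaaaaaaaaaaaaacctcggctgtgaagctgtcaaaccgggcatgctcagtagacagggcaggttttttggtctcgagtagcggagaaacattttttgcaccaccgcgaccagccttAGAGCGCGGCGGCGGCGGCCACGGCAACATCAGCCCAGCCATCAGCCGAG
The ADGRL3 window holds 30 CpG dinucleotides and is 69.7% G or C, the FLRT2 window 19 and 59.0%, and the TENM1 window 15 and 57.3%, against medians of 14 and 58.7% over 35116 promoters of this length. None of the 3 windows holds the TATA box letters TATAAA, found in 11.5% of all promoters, on either strand. The FLRT2 window holds 1 match to the E box letters CACGTG, a palindrome found in 7.26% of all promoters. A match or its lack describes these letters in these windows only.

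ADGRL1, ADGRL2, TENM3 and TENM4 were the well-expressed part of the family. Over all 18 libraries ADGRL1 ran from 77 to 119 CPM with a median of 104 CPM, and TENM3 from 59.2 to 101 CPM with a median of 76.8 CPM. ADGRL2 ran from 31.3 to 63.3 CPM and TENM4 from 24.9 to 63.8 CPM. TENM1 and TENM2 were sparse, at no more than 5.25 and 3.11 CPM in any library. FLRT1 had 8 reads in all, spread over 6 libraries, and FLRT3 had 7 reads in 5 libraries, so neither reached the count filter and neither was tested. FLRT2 was therefore the FLRT ligand with measurable RNA, and 8 of the 10 genes were tested, as were 63.8% of all genes.

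**Figure D1:**
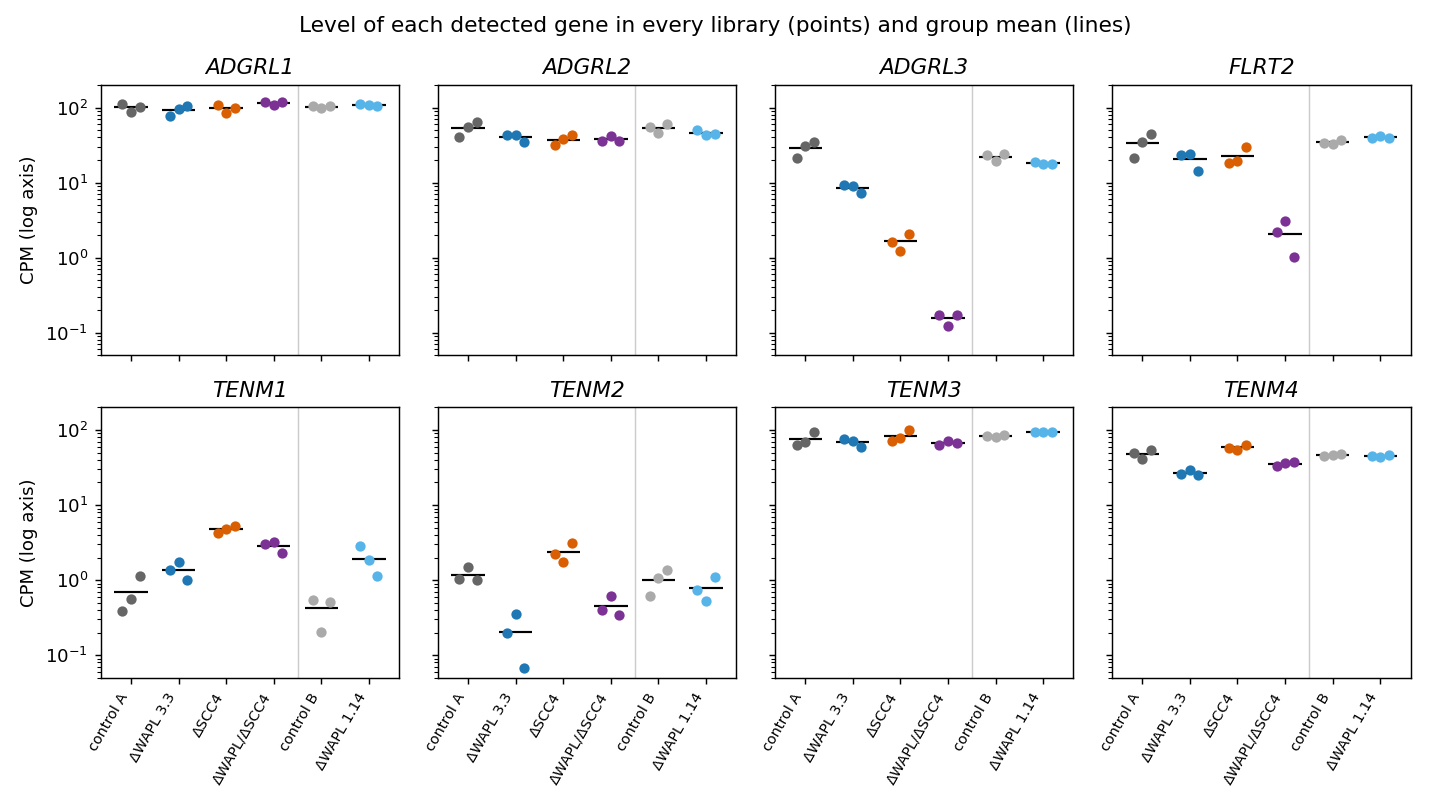
CPM on a log axis for the 8 tested genes, with each library as a point and the mean of the 3 libraries of a group as a line; the grey rule separates control A and its knockouts from control B and clone 1.14. ADGRL3 steps down from control A to ΔWAPL/ΔSCC4, where its 3 libraries lie between 0.123 and 0.171 CPM, while ADGRL1 stays between 77 and 119 CPM throughout.

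The latrophilins differed most in ADGRL3. It was at 21.4, 30.7 and 34.6 CPM in control A, at 9.17, 8.98 and 7.31 CPM in clone 3.3, and at 1.63, 1.22 and 2.07 CPM in ΔSCC4. In ΔWAPL/ΔSCC4 it was at 0.171, 0.123 and 0.17 CPM, which is 3, 2 and 3 reads. The libraries of these 4 groups did not overlap at any step of that order. In set B it was at 23.0, 19.4 and 24.1 CPM in the controls and at 19.0, 17.6 and 17.9 CPM in clone 1.14, again without overlap but close together.

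ADGRL3 fell by 1.78 on the log2 scale in clone 3.3 (SE 0.188, adjusted p = 1.33e-05, edgeR's quasi-likelihood test). It fell by 4.11 in ΔSCC4 (SE 0.255, adjusted p = 4.96e-06) and fell by 7.47 in ΔWAPL/ΔSCC4 (SE 0.301, adjusted p = 2.22e-07). In read numbers, the 3 control A libraries held 1406 reads and the 3 double knockout libraries 8, a ratio of 187 after scaling for depth, with an exact interval of 94.8 to 435 that covers counting error only. The fitted fold for so few reads depends on the prior count of the fit. In that comparison ADGRL3 passed the count filter through the control A libraries. Clone 1.14 differed from its controls by -0.30 (95% interval -0.52 to -0.07, adjusted p = 0.069), which did not pass the threshold of 0.05. The effect of WAPL loss on ADGRL3 differed between the clones by -1.47 (SE 0.231, adjusted p = 0.00238), where clone and set cannot be told apart.

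The double knockout also differed from each of its single knockouts at ADGRL3. The log2 difference from clone 3.3 was -5.71 (SE 0.275, adjusted p = 8.81e-10) and that from ΔSCC4 was -3.37 (SE 0.408, adjusted p = 1.03e-05). In both, ADGRL3 passed the count filter through the single knockout, since the double knockout libraries held 3, 2 and 3 reads. The sizes of these folds rest on those few reads. Whether SCC4 loss acted more strongly with WAPL already lost was asked with an interaction term, which was -1.58 on the log2 scale (95% interval -2.63 to -0.53, adjusted p = 0.0517) and missed the threshold. It passed with no filter (adjusted p = 0.0343), in a fit over all 18 samples (adjusted p = 0.0275) and in 3 of 12 fits that each left out a library.

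ADGRL1 and ADGRL2 did not pass the threshold in any comparison of the main test. ADGRL1 had group means from 91.6 ± 13.4 CPM in clone 3.3 to 115 ± 6.99 CPM in ΔWAPL/ΔSCC4. Its log2 difference from control A was 0.18 in the double knockout, with a 95% interval of -0.11 to 0.47. ADGRL2 was at 40.2, 54.4 and 63.3 CPM in control A and at 31.3, 38.1 and 43.0 CPM in ΔSCC4, so that the groups overlapped. Its log2 difference there was -0.50 (95% interval -0.92 to -0.09, adjusted p = 0.133). With the replicate number as a block, which pairs the libraries of these 2 groups, the same difference had an adjusted p of 0.000209. That pairing was seen in these same data and no label gives it, and 46.0% of all genes passed in that fit. In a fit over all 18 samples the ADGRL2 difference had an adjusted p of 0.0377.

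Compared per length of transcript, ADGRL1 made up 58.5% ± 7.69 of the summed latrophilin level in control A, ADGRL2 32.0% ± 5.77 and ADGRL3 9.5% ± 1.92 (SD, n = 3). In ΔWAPL/ΔSCC4 the ADGRL3 share was 0.0568% ± 0.00888 and that of ADGRL1 74.2% ± 2.85. The summed level per length was 22.1 ± 1.67 CPM per kb in control A and 19.8 ± 0.457 CPM per kb in the double knockout.

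**Figure D2:**
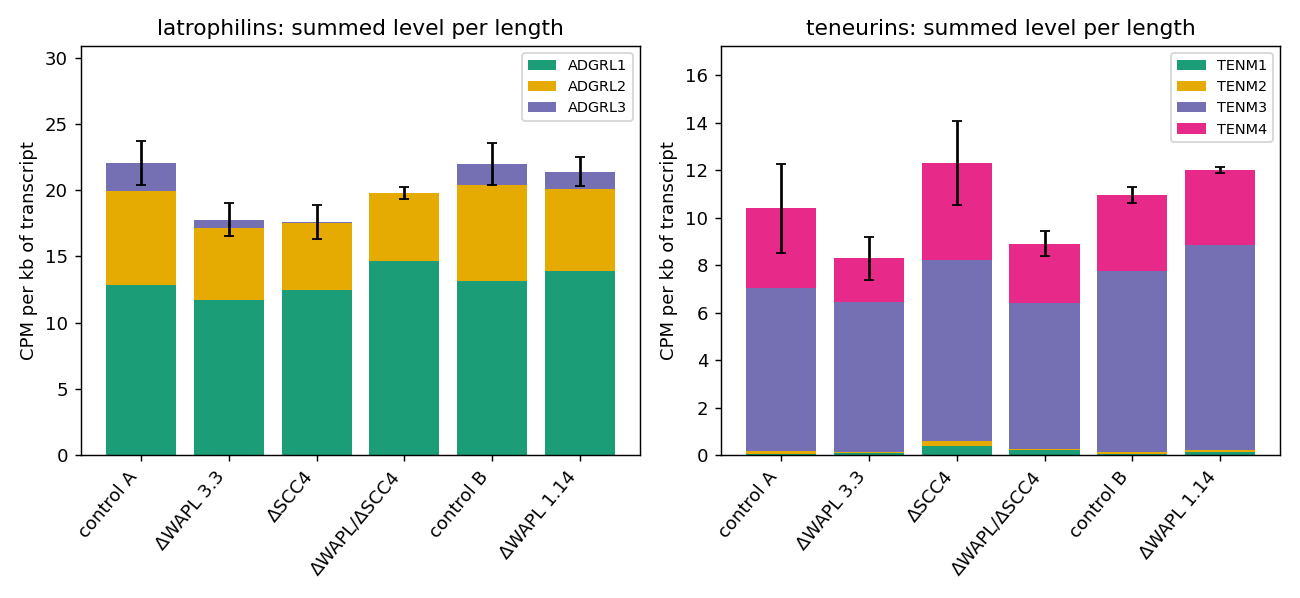
Summed level per length (CPM per kb of the canonical transcript) of the latrophilins, left, and the teneurins, right, in each group; coloured blocks are group means of single genes and error bars are the SD of the sum over 3 libraries. ADGRL1 and TENM3 are the tallest blocks of their family in every group, and the ADGRL3 block is 2.1 in control A and 0.0112 in ΔWAPL/ΔSCC4.

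Among the teneurins, TENM1 was higher in 3 of the 4 knockout groups than in every library of their controls. It was at 0.391, 0.555 and 1.13 CPM in control A, which is 6, 9 and 19 reads, and at 4.29, 4.78 and 5.25 CPM in ΔSCC4. In ΔWAPL/ΔSCC4 it was at 3.07, 3.2 and 2.32 CPM, and in clone 3.3 at 1.35, 1.77 and 0.997 CPM. Every ΔSCC4 and every double knockout library was above every control A library, while clone 3.3 overlapped control A. In set B it was at 0.547, 0.202 and 0.506 CPM in the controls and at 2.81, 1.84 and 1.15 CPM in clone 1.14, without overlap.

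TENM1 rose in ΔSCC4 by 2.74 on the log2 scale (SE 0.308, adjusted p = 0.000249), in ΔWAPL/ΔSCC4 by 2.01 (SE 0.32, adjusted p = 0.00248) and in clone 1.14 by 2.19 (SE 0.466, adjusted p = 0.0164). In clone 3.3 the difference was 0.93 (95% interval 0.14 to 1.72, adjusted p = 0.175). The call in clone 1.14 was lost without control B replicate 1 and without clone 1.14 replicate 2. Few control reads stood behind these folds, and TENM1 passed the count filter through the knockout libraries. The gain with SCC4 loss was smaller in the WAPL-deficient background, with an interaction of -1.67 (SE 0.412, adjusted p = 0.0153). STAG2, which overlaps TENM1, differed by 0.06 in ΔWAPL/ΔSCC4, 0.19 in ΔSCC4, 0.12 in clone 3.3 and 0.53 in clone 1.14 (SE 0.308, adjusted p = 0.255), and passed in none of these.

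TENM2 was lower where WAPL was lost in the clone 3.3 background. It was at 1.04, 1.48 and 1.01 CPM in control A, at 0.199, 0.354 and 0.0664 CPM in clone 3.3 (4, 5 and 1 reads) and at 0.398, 0.614 and 0.339 CPM in ΔWAPL/ΔSCC4. In ΔSCC4 it was at 2.21, 1.73 and 3.11 CPM. Clone 3.3 and the double knockout lay wholly below control A, and ΔSCC4 lay wholly above it. In set B it ran from 0.615 to 1.35 CPM in the controls and from 0.534 to 1.09 CPM in clone 1.14, which overlapped.

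TENM2 fell by 2.51 on the log2 scale in clone 3.3 (SE 0.443, adjusted p = 0.00149) and fell by 1.39 in ΔWAPL/ΔSCC4 (SE 0.329, adjusted p = 0.0267). It passed the count filter there through the control libraries. The call in ΔWAPL/ΔSCC4 was lost with DESeq2 (adjusted p = 0.122) and in 3 of 6 fits that each left out a library, namely control A replicate 2 and ΔWAPL/ΔSCC4 replicates 1 and 3. In ΔSCC4 the difference was 1.01 (95% interval 0.37 to 1.64, adjusted p = 0.0529). With the replicate block, which no label gives, it was 1.01 (adjusted p = 0.0115), where 46.0% of all genes passed. In clone 1.14 the difference was -0.40 (95% interval -1.25 to 0.46). Between the double knockout and ΔSCC4 the log2 difference was -2.41 (SE 0.329, adjusted p = 3.71e-05). There TENM2 passed the count filter through the ΔSCC4 libraries, with 7, 10 and 6 reads in the double knockout.

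TENM4 was lower in clone 3.3 as well, at 26.2, 28.9 and 24.9 CPM against 49.9, 40.6 and 54.0 CPM in control A, with no overlap. It fell by 0.87 on the log2 scale (SE 0.156, adjusted p = 0.00171). In ΔSCC4 it was at 57.9, 54.8 and 63.8 CPM and in ΔWAPL/ΔSCC4 at 33.3, 36.6 and 37.1 CPM, wholly above and wholly below control A. The log2 difference of ΔSCC4 was 0.28 (95% interval -0.06 to 0.61, adjusted p = 0.312). With the replicate block, which no label gives, it was 0.28 (adjusted p = 0.00635), where 46.0% of all genes passed. The log2 difference of the double knockout from control A was -0.44 (95% interval -0.75 to -0.13, adjusted p = 0.0998, and 0.009 in a fit over all 18 samples), and that from ΔSCC4 was -0.72 (SE 0.128, adjusted p = 0.000485). In set B the controls ran from 44.4 to 47.5 CPM and clone 1.14 from 44.1 to 46.9 CPM. The difference there was -0.02 (95% interval -0.16 to 0.12), and the clones differed in their TENM4 response by -0.83 (SE 0.156, adjusted p = 0.00902).

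TENM3 was the most abundant teneurin per length in every group, and its group means spanned 0.49 on the log2 scale. It was at 62.8, 68.4 and 94.1 CPM in control A and had group means of 67.2 ± 4.31 CPM in ΔWAPL/ΔSCC4 to 94.3 ± 0.191 CPM in clone 1.14. It rose in clone 1.14 by 0.17 on the log2 scale (SE 0.0501, adjusted p = 0.0488), from 82.1, 81.7 and 86.0 CPM to 94.4, 94.1 and 94.3 CPM. That call was lost with DESeq2 (adjusted p = 0.134) and with the replicate block, which pairs libraries by number (adjusted p = 0.0597). It held in 1 of 6 fits that each left out a library. Per length TENM3 was 65.9% ± 3.86 of the summed teneurin level in control A and 76.0% ± 1.71 in clone 3.3, and TENM4 32.5% ± 4.03 and 22.5% ± 1.7.

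FLRT2 was lowest where both WAPL and SCC4 were knocked out. It was at 21.1, 34.8 and 44.9 CPM in control A, at 23.3, 24.2 and 14.1 CPM in clone 3.3 and at 18.1, 19.5 and 29.9 CPM in ΔSCC4. In ΔWAPL/ΔSCC4 it was at 2.16, 3.07 and 1.02 CPM. The single knockouts overlapped control A, and the double knockout lay wholly below all 3 groups. In set B it was at 34.2, 32.2 and 36.6 CPM in the controls and at 39.1, 41.8 and 39.1 CPM in clone 1.14, which lay wholly above.

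FLRT2 fell by 4.02 on the log2 scale in ΔWAPL/ΔSCC4 (SE 0.358, adjusted p = 4.38e-05). Its log2 difference from control A was -0.72 in clone 3.3 (95% interval -1.24 to -0.20, adjusted p = 0.0944) and -0.59 in ΔSCC4 (95% interval -1.19 to 0.02, adjusted p = 0.229). The clone 3.3 difference passed with no filter (adjusted p = 0.0217) and without control A replicate 1. With the replicate block, which no label gives, the ΔSCC4 difference was -0.56 with an adjusted p of 0.00121, where 46.0% of all genes passed. The interaction of the 2 knockouts was -2.71 (SE 0.478, adjusted p = 0.00145), and it passed the threshold in all 12 fits that each left out a library. Clone 1.14 differed from its controls by 0.22 (95% interval 0.05 to 0.38, adjusted p = 0.0667). Against clone 3.3 the double knockout was at -3.31 (SE 0.277, adjusted p = 4.25e-07) and against ΔSCC4 at -3.45 (SE 0.274, adjusted p = 7.52e-08).

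**Figure D3:**
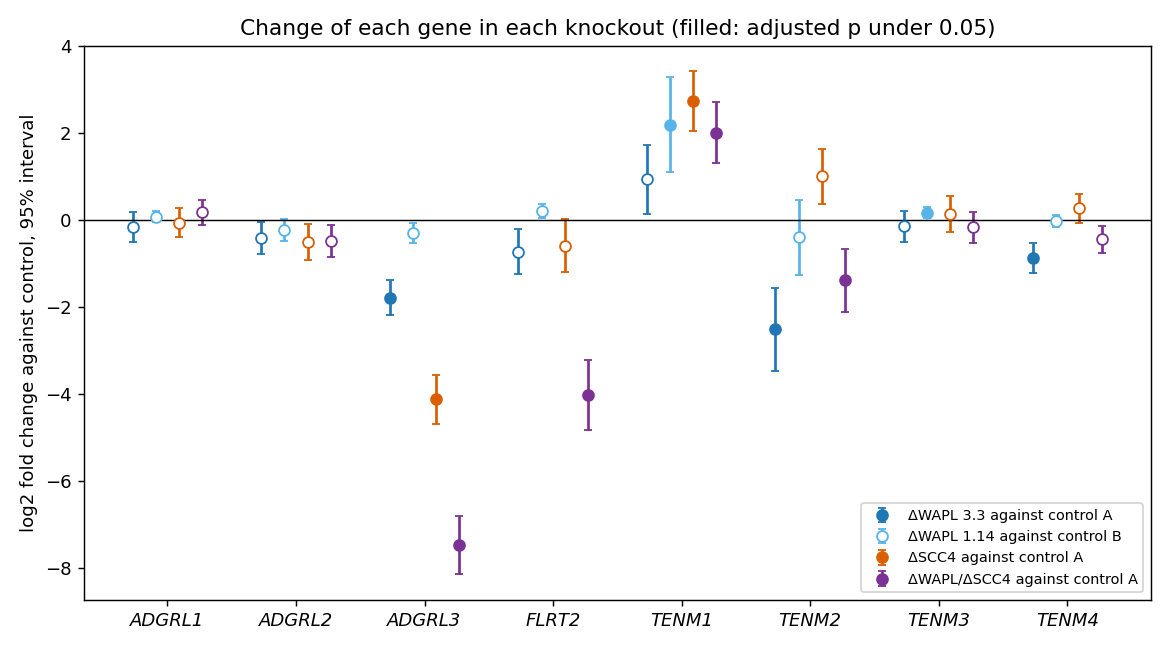
Log2 fold change of the 8 tested genes in each knockout against its own controls, with 95% intervals; filled points have an adjusted p under 0.05 in edgeR's quasi-likelihood test. ADGRL3 lies at -1.78, -4.11 and -7.47 in clone 3.3, ΔSCC4 and ΔWAPL/ΔSCC4, and FLRT2 at -4.02 in ΔWAPL/ΔSCC4.

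Counted over the family, 3 of 8 genes passed the threshold in clone 3.3, where 8.07% of all 12489 genes tested did, and all 3 fell (4.17% of all genes rose and 3.9% fell). In clone 1.14, 2 of 8 passed, against 20.1% of all genes, and both rose (8.7% of all genes rose and 11.4% fell). In ΔSCC4, 2 of 8 passed, against 9.49%, and 1 rose and 1 fell (5.45% rose and 4.03% fell). The replicate block rests on a pairing seen in these same data, which no label gives. With it, 6 of 8 passed in ΔSCC4, where 46.0% of all genes passed in the same fit. In clone 1.14, 1 of 8 passed with it, where 24.0% of all genes did. In ΔWAPL/ΔSCC4, 4 of 8 passed, against 7.95%, and 1 rose and 3 fell (4.65% rose and 3.3% fell). The median log2 difference of the 8 genes was -0.56 in clone 3.3, 0.03 in clone 1.14, 0.04 in ΔSCC4 and -0.46 in ΔWAPL/ΔSCC4, where the median over all genes lay within 0.0047 of 0. The comparisons with control A share its 3 libraries.

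The double knockout against clone 3.3 gave 4 of 7 genes past the threshold, 2 in each direction, where 10.6% of all genes passed (6.05% higher and 4.55% lower). Ranges were apart for 5 genes, against 27.8% of all genes. Besides ADGRL3 and FLRT2, TENM1 was higher by a log2 difference of 1.06 (SE 0.24, adjusted p = 0.0077) and TENM4 by 0.42 (SE 0.122, adjusted p = 0.0367), and the TENM4 call was lost in all 6 fits that each left out a library. Against ΔSCC4, 5 of 8 passed and were lower, where 27.3% of all genes passed (13.7% higher and 13.6% lower), and ranges were apart for 5 genes (41.3% of all genes). TENM1 was among them, at -0.74 (SE 0.192, adjusted p = 0.00856). The response to WAPL loss differed between the clones for 2 of 8 genes, both with a negative term (2.65% of all genes, 1.67% positive and 0.985% negative). The 2 knockouts interacted at 2 of 8, both with a negative term (11.3%, 5.85% positive and 5.48% negative).

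Between the wild-type sets, 0 of 7 family genes tested passed with edgeR, 0 passed with DESeq2, and 0 had an unadjusted p under 0.05, where 0.64% of all genes passed (0.56% higher and 0.0799% lower in control B). Their largest log2 difference was -0.39 for ADGRL3 (95% interval -0.80 to 0.02). No gene of the family had ranges apart between the control sets, against 19.4% of all genes, while ranges were apart for 3 of 8 in clone 3.3 (23.3% of all genes), 4 in clone 1.14 (42.5%), 4 in ΔSCC4 (26.7%) and 5 in ΔWAPL/ΔSCC4 (22.6%).

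Other proteins that bind the family or resemble it were followed as a list of 20 genes. In ΔSCC4, 6 of 16 tested passed (9.49% of all genes) and all 6 rose (5.45% of all genes): the FLRT-binding guidance receptors UNC5A (1.81 on the log2 scale) and UNC5B (0.68), the guidance receptor ROBO1 (0.95), the related adhesion receptors ADGRB1 (1.54) and ADGRB2 (0.55), and the scaffold gene SHANK2 (3.14). In clone 3.3, 3 of 15 passed (8.07% of all genes), with ADGRB3 at 0.87, the growth factor receptor FGFR1 at -0.60 and the G protein subunit GNAO1 at -1.01. In clone 1.14, 8 of 15 passed (20.1% of all genes). Higher there were ADGRB3 at 1.26, ADGRB1 at 0.85, ADGRB2 at 0.35 and ROBO1 at 0.30, and lower were GNAO1 at -0.97, FGFR1 at -0.53, UNC5B at -0.48 and the scaffold gene SHANK3 at -0.28. In ΔWAPL/ΔSCC4, 3 of 16 passed (7.95% of all genes), with SHANK2 at 3.10, ADGRB2 at 0.53 and FGFR1 at -0.52. SHANK2 had 1, 2 and 4 reads in control A, so it passed the count filter only through the knockout libraries. It was not tested in clone 3.3 or clone 1.14. UNC5A had 17, 9 and 5 reads in control A.

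Of the neuronal markers, MAP2 was low in the double knockout. The summed level of 8 markers was 17.6 to 18.4 CPM in ΔWAPL/ΔSCC4 and between 28.6 and 46.6 CPM in every library of the other groups. STMN2 had no reads in ΔSCC4 and ΔWAPL/ΔSCC4 and 1 read in control A. MAP2, a dendrite protein, was at 18.3 ± 4.49 CPM in control A and 2.78 ± 0.788 CPM in ΔWAPL/ΔSCC4, and fell by 2.73 on the log2 scale (SE 0.235, adjusted p = 3.57e-05). The other 3 markers tested did not pass, with SYP at -0.51, TUBB3 at -0.10 and DLG4 at 0.04. In clone 1.14 MAP2 rose by 0.97 and the synaptic scaffold gene DLG4 was at -0.51. The part of these markers in the ADGRL3 and FLRT2 results was not tested. Since these are bulk samples, fewer cells with a transcript and less RNA per cell cannot be told apart.

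ADGRL3 and FLRT2 lie in wide stretches without other tested genes. The nearest tested protein-coding genes of ADGRL3 in the double knockout were POLR2B at 4168.7 kb and EPHA5 at 3241.2 kb, with log2 differences of 0.03 and -0.41 from control A. EPHA5, a guidance receptor gene, rose in ΔSCC4 by 4.33 on the log2 scale (SE 0.236, adjusted p = 2.15e-06). The nearest of FLRT2 were SEL1L at 3996.3 kb and SPATA7 at 2730.5 kb, and neither passed in any knockout. Within 6 Mb of the ADGRL3 start, 1 of 17 other genes passed in ΔWAPL/ΔSCC4 (HOPX, -1.79), where 7.95% of all genes passed. The 22 other genes within 6 Mb of the FLRT2 start ran from -0.42 for PTPN21 to 1.05 for DIO2 there without passing. In clone 3.3, 0 of 17 passed near ADGRL3 and 3 of 21 near FLRT2 (8.07% of all genes). In clone 1.14 these were 2 of 18 and 3 of 21 (20.1%), and in ΔSCC4 2 of 17 and 1 of 21 (9.49%).

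DCAF12L2, at 959.3 kb from TENM1, rose in clone 3.3 by 5.97 on the log2 scale and in ΔWAPL/ΔSCC4 by 5.18, where TENM1 was at 0.93 and 2.01. In ΔSCC4 and clone 1.14 DCAF12L2 did not reach the count filter and was not tested. Control A alone did not carry it past the filter, so it was tested through the knockout libraries. The sizes of its folds rest on few control reads. The genes nearest to TENM2 were MAT2B and WWC1, the latter at 27.5 kb, and neither passed in any knockout. In clone 1.14, where 20.1% of all genes passed, some of the nearest genes passed too. NARS2, at 77.6 kb from TENM4, was at -0.28 there (adjusted p = 0.0284) and DCTD, at 87.0 kb from TENM3, at -0.36 (adjusted p = 0.0123). In the same clone IGFBP7, at 4089.5 kb from ADGRL3, was at 2.62 (adjusted p = 0.0111). FAM181B, at 3288.9 kb from TENM4, was at 1.44 (adjusted p = 0.0286) and SMARCA1, at 4242.3 kb from TENM1, at 0.47 (adjusted p = 0.0355). IGFBP7 did not reach the count filter in any comparison with control A, nor did FAM181B in clone 3.3 or ΔSCC4. Their folds in clone 1.14 may therefore rest on few control reads. The other nearest genes in clone 1.14, EPHA5, STAG2, MAT2B, WWC1, AGA, SEL1L and SPATA7, did not pass.

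**Figure D4:**
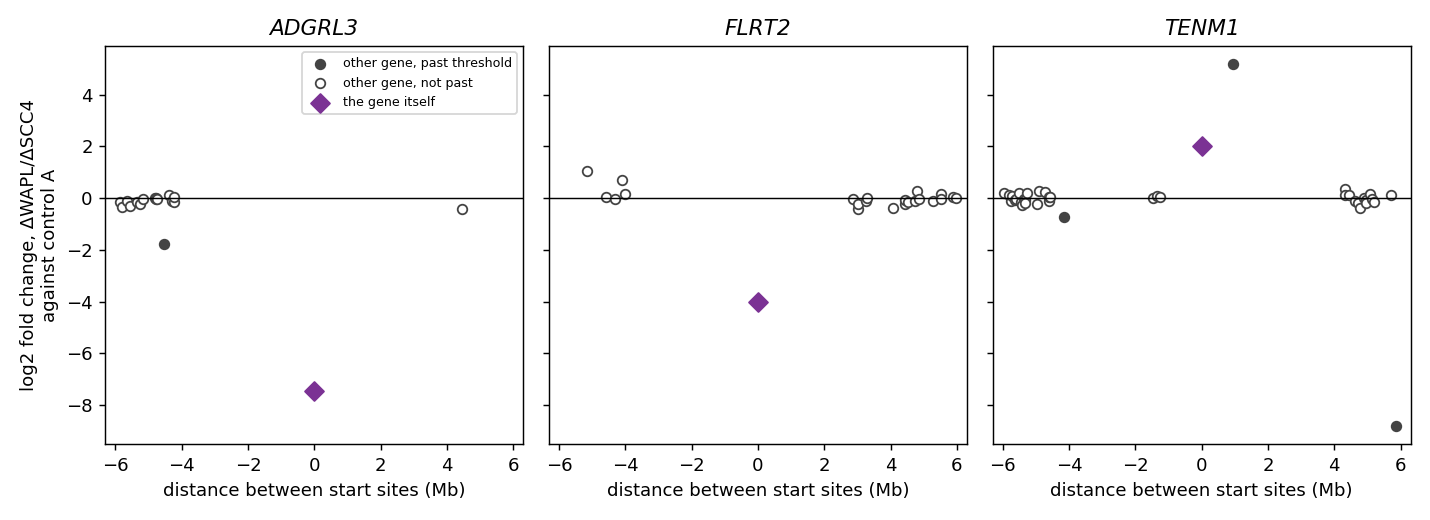
Log2 fold change of ΔWAPL/ΔSCC4 against control A for every tested protein-coding gene whose start site lies within 6 Mb of that of ADGRL3, FLRT2 or TENM1, by the distance between start sites along the chromosome. Diamonds are the 3 named genes and filled circles are other genes with an adjusted p under 0.05. The diamonds of ADGRL3 and FLRT2 lie at -7.47 and -4.02, and the circle nearest to either is SPATA7, 2.85 Mb from FLRT2.

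Over the 6 group means, the pattern of INPP1, an inositol phosphatase gene, was among the 3 most like that of FLRT2, with a root-mean-square difference of 0.319 on the centred log2 CPM scale, where the median over 11563 genes was 1.48. For ADGRL3 the nearest was INPP1 (1.04), against a median of 2.4, and for TENM1 they were SLC26A7 (0.354) and EPDR1 (0.426), against 1.11. These likenesses rest on 6 points that share libraries and depth, and they are a description only.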

How the data were processed

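RNA was measured in 18 libraries of HAP1 cells. The authors made strand-specific polyA libraries, aligned the reads to hg19 (TopHat2 2.0.9 in the submitters' processing notes, another TopHat version in the study's methods) and deposited raw HTSeq counts per gene, 1 file per library. Reads assigned to no gene, 20.34% to 22.62% of each library, stayed out of totals and tests. Gene identifiers were matched to GENCODE annotation on GRCh37 (96.6% found). Per-length levels used the canonical transcript. For FLRT2 this is 33.68 kb, so its level per length is uncertain and was not used.

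Counts were tested with edgeR 4.0.16 in R 4.3.3 (TMM, filterByExpr, quasi-likelihood test, Benjamini-Hochberg adjustment over all genes tested, threshold 0.05) between the groups named. Standard errors were back-calculated from each fold change and its F statistic. CPM was TMM-scaled over all libraries and log2 CPM had a prior count of 2. The fits were tested on simulated data with 200 changed genes, for clone 3.3 against control A and for the difference between the clones. Of 2-fold changes 86.5% and 69.5% were found, with 6.49% and 8.55% of calls false. Of 4-fold changes 100% and 98.5% were found, with 7.41% and 2.96% of calls false. The simulation gave all genes the same dispersion, unlike real genes, and held no spread like that of control A. Alternatives were DESeq2 1.42.0, its size factors, dropping the filter, a stricter filter (10 or more counts in each sample), a fit over all 18 samples, the replicate block and leaving out each library. Same-numbered libraries deviated together (every correlation over 0.1) for ΔSCC4 with control A (0.91, 0.296 and 0.83) and for clone 1.14 with control B (0.169, 0.586 and 0.412). That pairing comes from the data and from no label, so p-values with the block are given as a description. For clone 3.3 with control A the same correlations were -0.684, -0.044 and -0.707.

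All 10 family genes are named. Of the partner list, genes past the threshold are named. Of other genes, those nearest a family gene past the threshold and those nearest in pattern to the 3 family genes with the widest spread of group means are named, except for a result that is not reported here. HOPX, PTPN21 and DIO2 were named after their values were seen. The family, the lists and the tests were chosen with earlier results of these data known. Counting intervals cover counting error only.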

Additional observations from a re-analysis of the deposited data

Results flagged for a closer look

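In 4 cases the response of a family gene differed between backgrounds by a test of the difference itself, an interaction term in edgeR's quasi-likelihood test. ADGRL3 responded to WAPL loss differently in clone 3.3 and clone 1.14, by -1.47 on the log2 scale (95% interval -1.97 to -0.97, adjusted p = 0.00238). TENM4 did so by -0.83 (95% interval -1.17 to -0.50, adjusted p = 0.00902). Each clone has its own controls, so clone and set cannot be told apart. FLRT2 differed with SCC4 knockout to another extent with and without WAPL, by -2.71 (95% interval -3.73 to -1.69, adjusted p = 0.00145). TENM1 did so by -1.67 (95% interval -2.55 to -0.79, adjusted p = 0.0153). Each knockout group is 1 clone, so in these terms a response to SCC4 loss and a property of a clone cannot be told apart. The TENM1 term lost its call in 2 of 12 fits that each left out a library, control A replicate 2 and clone 3.3 replicate 2. It rests on few reads, 6, 9 and 19 in control A and 27, 25 and 15 in clone 3.3. Requiring at least 10 counts in every sample takes TENM1 out of that test.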

How the results depend on the processing

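Of 919 log2 differences recomputed for 70 pairs of gene and comparison, 842 kept direction and side of the threshold, 29 newly passed it, 25 no longer did and 23 changed sign. The sign changes all came from leaving out a library, in differences that passed the threshold neither before nor after. Over those fits TENM3 ran from -0.25 to 0.053 in clone 3.3, -0.019 to 0.328 in ΔSCC4, -0.257 to 0.03 in ΔWAPL/ΔSCC4 against control A and -0.135 to 0.032 against clone 3.3. TENM4 ran from -0.049 to 0.016 in clone 1.14, ADGRL1 from -0.153 to 0.034 in ΔSCC4 and ADGRL2 from -0.104 to 0.124 in ΔWAPL/ΔSCC4 against ΔSCC4. Between the control sets ADGRL1 ran from -0.051 to 0.122, ADGRL2 from -0.118 to 0.169, TENM2 from -0.474 to 0.036, TENM4 from -0.164 to 0.005 and FLRT2 from -0.206 to 0.278. The TENM2 interaction of the knockouts ran from -0.245 to 0.615. Requiring at least 10 counts in every sample left 0 genes past the threshold in clone 1.14 (2 in the reported fit), 1 in ΔSCC4 (2), 1 in ΔWAPL/ΔSCC4 against control A (4), 3 against ΔSCC4 (5) and 1 in the interaction of the knockouts (2). This filter removes genes with few reads in either group. It also took out TENM2 in clone 3.3 (4, 5 and 1 reads) and ADGRL3 in ΔWAPL/ΔSCC4 against clone 3.3 (3, 2 and 3 reads). Both had passed in the reported fit. TENM3 in clone 1.14 was kept but not past the threshold (adjusted p = 0.0527). In clone 1.14 the count was 1 with DESeq2, 1 with no filter and 1 in a fit over all 18 samples, which gave 4 in ΔSCC4 and added TENM4 in ΔWAPL/ΔSCC4 against control A (adjusted p = 0.009). With the replicate block the count was 6 in ΔSCC4 (46.0% of all genes passed in that fit) and 1 in clone 1.14 (24.0%), and among pairings not borne out by the data it added ADGRL1 in the double knockout against clone 3.3 (adjusted p = 0.0419) and changed no other call. Leaving out each library gave 3 to 5 genes in clone 3.3 (5 without control A replicate 1), 0 to 3 in clone 1.14 (0 without control B replicate 1 or clone 1.14 replicate 2), 2 to 4 in ΔSCC4 (4 without control A replicate 1), 3 to 5 in ΔWAPL/ΔSCC4 against control A, 3 to 4 against clone 3.3, 4 to 6 against ΔSCC4, 2 to 3 for the difference between the clones and 1 to 3 for the interaction of the knockouts (1 without control A replicate 2 or clone 3.3 replicate 2). The cause was not tested. Depth limits TENM1, TENM2 and ADGRL3, with as few as 3 reads, 1 read and 2 reads in a library, and FLRT1 and FLRT3 could not be tested.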

Other observations

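At the outer edge of the window around TENM1, ARHGAP36 had a log2 difference of -8.81 between ΔWAPL/ΔSCC4 and control A, at 5.85 Mb between start sites. ARHGAP36 also passed the threshold in clone 3.3 and in ΔSCC4, so this is not particular to the double knockout. Its read numbers are not given here, and how far the size of this fold rests on few reads was not tested. It was named after its value was seen.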
